A study of Homo sapiens with 12 samples.

Results

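The 10 genes described here encode the main HSP90, HSP70 and HSP110 chaperones of the human cell and an HSP40 partner. They are HSP90AA1, HSP90AB1, HSP90B1, HSPA8, HSPA4, HSPA4L, HSPA5, HSPA9, HSPH1 and DNAJB1. They were chosen by name from a table of 59385 gene names: HSP90AB1 and HSPA8, whose mRNAs carry PRRC2B binding sites, HSPA4, whose mRNA carries none, and their paralogs, with the J-domain partner DNAJB1. All 10 were among the 18166 genes that passed the filter on low counts.

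The counts came from 2 lines of HEK293T, a human embryonic kidney line. Each carried a lentiviral, doxycycline (Dox)-inducible shRNA, either a non-silencing control (shCtrl) or an shRNA against PRRC2B (shPRRC2B), an RNA-binding protein studied for its part in translation. Per the methods, both were stable single clones, both were induced, and polysome-associated RNA was the RNA of pooled heavy gradient fractions of cells treated with cycloheximide, read 36 h after induction. Total and polysome-associated RNA were read in 3 biological replicates of each line, which gave 4 groups and 12 libraries of 9855734 to 20837542 counts. Because each arm is 1 clone, the shRNA and the clone cannot be told apart. PRRC2B itself fell from 281 ± 28.7 to 100.3 ± 2.32 CPM (counts scaled to library size; SD, n = 3) in total RNA. All 6 HEK293T markers examined were read in every library. Among 10 markers of other cells, COL1A1 reached 34 CPM and DES 3.82 CPM, both at their highest mean levels in shPRRC2B cells (COL1A1 in total RNA, DES on polysomes), while the other 8 stayed at or under 0.516 CPM, and their part in the results was not tested.

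HSP70 proteins bind unfolded stretches of client proteins and release them in a cycle driven by ATP. J-domain proteins such as DNAJB1 deliver clients and speed ATP hydrolysis, and HSP110 proteins (HSPA4, HSPA4L and HSPH1) act as nucleotide exchange factors that restart the cycle. HSP90 proteins work as dimers and take over partly folded clients such as kinases and steroid receptors. HSPA8 and HSP90AB1 are the constitutive cytosolic forms, HSP90AA1, HSPH1 and DNAJB1 respond strongly to heat shock, HSPA5 (BiP) and HSP90B1 (GRP94) work in the endoplasmic reticulum (ER), and HSPA9 (mortalin) works in mitochondria.

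In total RNA of shPRRC2B cells all 10 chaperone mRNAs lay above shCtrl, and on polysomes most lay below. TE, the translation efficiency, was read as the polysome-to-total ratio. It fell for 8 of the 10 genes, from a log2 change of -0.86 for HSPA9 to -1.51 for HSP90B1. TE did not pass the test for HSPA8 or for DNAJB1. Together the 10 genes took 0.641% ± 0.0511 of the counts in shCtrl total RNA and 0.907% ± 0.00765 in shPRRC2B total RNA (SD, n = 3). Their share of polysome-associated counts was 0.190% ± 0.0108 in shCtrl and 0.153% ± 0.0121 in shPRRC2B cells. The chaperones thus took more of the total RNA and less of the polysome RNA in the knockdown line, and neither pair of groups overlapped. These are relative levels in bulk RNA, in which fewer cells carrying an mRNA and less of it per cell cannot be told apart.

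**Figure D1:**
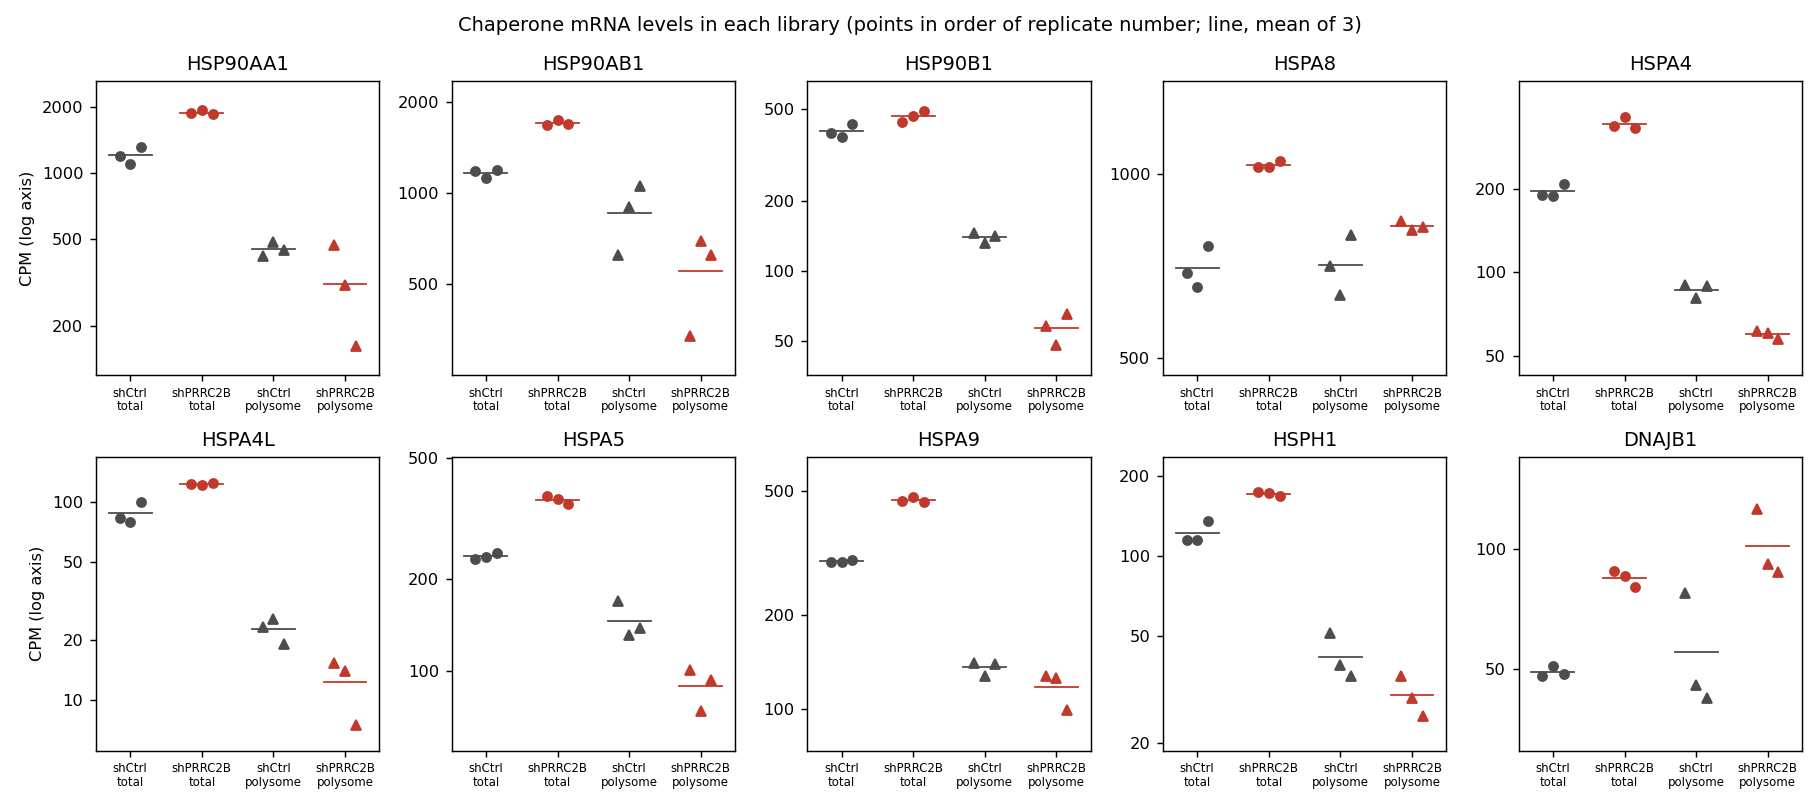
CPM of each chaperone mRNA (log axes, 1 panel per gene) in the 3 libraries of each group, grey for shCtrl and red for shPRRC2B, circles for total and triangles for polysome-associated RNA, with the mean of 3 as a line. In total RNA the red circles lie above the grey ones in all 10 panels, while on polysomes the red triangles lie above the grey ones for HSPA8 and DNAJB1.

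Per kilobase of the canonical transcript, which allows genes to be compared, the cytosolic HSP90 forms and HSPA8 were the most abundant. In shCtrl total RNA the level was 456 ± 15.2 CPM per kb for HSP90AB1, 373 ± 33.2 for HSP90AA1 and 310 ± 24.6 for HSPA8 (SD, n = 3). HSP90B1 followed at 144 ± 8.97, HSPA9 at 67.7 ± 0.530 and HSPA5 at 60.8 ± 1.39 CPM per kb. The HSP110 genes and DNAJB1 were the lowest, with HSPA4 at 41.0 ± 2.25, HSPH1 at 23.2 ± 2.30, DNAJB1 at 21.9 ± 0.691 and HSPA4L at 8.25 ± 1.03 CPM per kb. In this order HSPH1 and DNAJB1 overlapped, and every other neighbouring pair was separated over the 3 libraries. The last place of HSPA4L rests on the length of its canonical transcript, whose use in these cells was not tested. Without the division by length it stood above DNAJB1, at 87.5 against 49.2 CPM.

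The question for total RNA was which chaperone mRNAs differed in amount between the lines. A gene was called at a Benjamini-Hochberg adjusted p under 0.05 over all genes tested and a log2 change above 0.5 or below -0.5, by edgeR's quasi-likelihood test. Of the 10 genes, 7 rose and 0 fell, where 14.9% of all genes tested rose and 14.1% fell. The median log2 change was 0.59 over the 10 genes and 0.04 over all genes. The 3 shPRRC2B libraries lay above the 3 shCtrl libraries for 10 of 10 genes, a pattern that 34.1% of all genes showed, and below them for 0 of 10, against 28.8% of all genes.

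The HSP110 gene HSPA4 (chromosome 5, 133052013 to 133106449, plus strand, GRCh38) had 190.2, 189 and 208 CPM in shCtrl total RNA. The shPRRC2B libraries read 336, 361 and 332 CPM, a log2 rise of 0.81 (SE 0.11, adjusted p = 2.9e-05). DNAJB1 (chromosome 19, 14514769 to 14560391, minus strand) went from 48.1, 51.0 and 48.6 to 87.9, 85.6 and 80.0 CPM. This rise of 0.78 (SE 0.19, adjusted p = 0.00376) was the next largest of the group. For both genes the lowest knockdown library stood more than 1.5 times above the highest control library.

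The organelle forms and HSPA8 rose less. Mitochondrial HSPA9 (chromosome 5, 138553756 to 138575675, minus strand) held 297, 296 and 301 CPM in shCtrl and 464, 478 and 460.0 CPM in shPRRC2B total RNA, a log2 rise of 0.65 (SE 0.12, adjusted p = 0.000505). HSPA5, the HSP70 of the ER (chromosome 9, 125234853 to 125241382, minus strand), held 234, 237 and 244 CPM against 375, 368 and 354 CPM, a rise of 0.62 (SE 0.13, adjusted p = 0.00175). HSPA8 (chromosome 11, 123057489 to 123063230, minus strand) held 688, 654 and 763 CPM against 1027, 1029 and 1053 CPM, a rise of 0.56 (SE 0.12, adjusted p = 0.00216). In each of these 3 genes the control and knockdown libraries were well apart.

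The other calls in total RNA sat close to the thresholds. HSP90AA1 (chromosome 14, 102080742 to 102139699, minus strand) rose by 0.65 (SE 0.24, adjusted p = 0.0451) and HSPA4L (chromosome 4, 127781821 to 127840733, plus strand) by 0.50 (SE 0.18, adjusted p = 0.0347). The call of HSP90AA1 was lost in 9 of 12 fits without 1 library and that of HSPA4L in 11 of 12, with adjusted p-values up to 0.142 for each. HSP90AB1 (chromosome 6, 44246166 to 44253888, plus strand) had a log2 change of 0.55 (SE 0.22, adjusted p = 0.0552). HSPH1 (chromosome 13, 31134973 to 31162388, minus strand) had one of 0.49 (SE 0.15, adjusted p = 0.0146), under the fold threshold. HSP90B1 (chromosome 12, 103930107 to 103953931, plus strand) had the smallest change, 0.21 (SE 0.12, adjusted p = 0.198).

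Because the 10 mRNAs lay higher together, their promoters were read for the motifs of the heat shock and ER stress pathways. A heat shock element (HSE) is built of inverted GAA units. A match of 2 units was searched as GAANNTTC or TTCNNGAA, each of which reads the same on both strands. A match of 3 units was GAA, TTC and GAA, or TTC, GAA and TTC, with 2 free bases between the units, so that it covers both strands and holds 2 overlapping matches of 2 units. The ER stress element (ERSE) was searched on both strands as CCAAT and CCACG with 9 free bases between them. RefSeq promoter windows of GRCh38.p14, from 250 bases before to 50 after the start, were found for 10 of the 10 genes. An HSE of 3 units stood in a window of 3 of the 10 genes (HSP90AA1, HSP90AB1 and HSPA8), where 0.608% of 27305 genes and 0.49% of 35116 windows had one. An HSE of 2 units was found in 6 of the 10, those 3 with HSPA4L, HSPA9 and DNAJB1, where 16.2% of genes and 13.5% of windows had one. The ERSE stood in the windows of both ER chaperones, HSPA5 and HSP90B1, where 0.0916% of genes and 0.0769% of windows had one. The following stretches of 30 bases, 5′ to 3′ on the strand of the gene with the fixed letters of the motif in capitals, show these matches.
HSP90AA1, HSE of 3 units, chr14:102087112-102087141, minus strand: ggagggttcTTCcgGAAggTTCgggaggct
HSP90AB1, HSE of 3 units, chr6:44247822-44247851, plus strand: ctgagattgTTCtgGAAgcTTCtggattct
HSPA8, HSE of 3 units, chr11:123062171-123062200, minus strand: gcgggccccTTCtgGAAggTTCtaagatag
DNAJB1, HSE of 2 units, chr19:14518456-14518485, minus strand: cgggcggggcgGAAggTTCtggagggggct
HSPA5, ERSE, chr9:125241386-125241415, minus strand: ccttcaCCAATcggcggcctCCACGacggg
HSP90B1, ERSE, chr12:103930210-103930239, plus strand: ccctgaCCAATcggaaggagCCACGcttcg
These are matches of letters, and no factor was measured at them. Total RNA of the genes with an HSE of 3 units changed by 0.55 to 0.65 on the log2 scale, of which the 0.55 of HSP90AB1 was not called. The genes with an HSE of 2 units only changed by 0.78 (DNAJB1), 0.65 (HSPA9) and 0.50 (HSPA4L). HSPA4 and HSPH1, with no match of any of these motifs, changed by 0.81 and 0.49, and the ERSE-bearing HSPA5 and HSP90B1 by 0.62 and 0.21.

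On polysomes most of the same genes lay lower. Of the 10, 1 rose and 5 fell, where 18.4% of all genes tested rose and 21.4% fell. The median log2 change was -0.53 over the 10 genes and -0.01 over all genes. HSP90B1 fell furthest, from 146, 131 and 142 CPM in shCtrl to 58.0, 48.0 and 65.0 CPM in shPRRC2B polysomes, a log2 change of -1.29 (SE 0.13, adjusted p = 8.3e-07). HSPA4L went from 23.5, 25.6 and 19.3 CPM to 15.4, 14.04 and 7.52 CPM, a change of -0.89 (SE 0.20, adjusted p = 0.00173). In both genes every knockdown library lay below every control library. This held for 5 of the 10 genes (HSP90B1, HSPA4, HSPA4L, HSPA5 and HSPA9), against 21.5% of all genes, and the reverse for 2, HSPA8 and DNAJB1, against 21.6%.

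HSPA5 and HSPA4 also fell without overlap. HSPA5 held 169, 131 and 138 CPM in shCtrl and 100.4, 73.6 and 93.1 CPM in shPRRC2B polysomes, a log2 change of -0.71 (SE 0.14, adjusted p = 0.000391). HSPA4 held 90.0, 80.9 and 89.5 CPM against 61.5, 60.7 and 57.8 CPM, a change of -0.53 (SE 0.11, adjusted p = 0.000935). HSP90AB1 fell by 0.65 (SE 0.22, adjusted p = 0.0219), although its libraries overlapped, with 626, 901 and 1059 CPM in shCtrl and 337, 694 and 622 CPM in shPRRC2B cells. Without replicate 1 of the shPRRC2B polysomes the change of HSP90AB1 was -0.50 and no longer past the fold threshold.

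DNAJB1 was the gene that rose on polysomes. Its levels were 77.3, 45.7 and 42.3 CPM in shCtrl and 126, 91.7 and 87.3 CPM in shPRRC2B cells, a log2 rise of 0.88 (SE 0.19, adjusted p = 0.00115). All 3 knockdown libraries lay above the highest control library. HSPA8, with 706, 633 and 794 CPM against 837, 809.7 and 821 CPM, also had no overlap, but its change of 0.21 (SE 0.12, adjusted p = 0.181) did not pass the test. HSP90AA1 (-0.52, adjusted p = 0.0883), HSPA9 (-0.21, adjusted p = 0.166) and HSPH1 (-0.48, adjusted p = 0.0183 but under the fold threshold) were not called either. HSPH1 was called in 4 of 12 fits without 1 library, with -0.63 and -0.69 without shCtrl polysome replicates 2 and 3 and -0.73 and -0.54 without shPRRC2B polysome replicates 1 and 2.

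HSP90AA1 varied widely on the polysomes of shPRRC2B cells. Its 3 shCtrl polysome libraries held 419.6, 486 and 444 CPM, while the 3 shPRRC2B libraries held 468, 309 and 162 CPM. Replicate 1 of the knockdown stood within the control values and the other two below them. Without that library the polysome change was -1.05 (adjusted p = 0.000646) and the TE change -1.64 (adjusted p = 0.000318). Without replicate 3, the lowest, they were -0.29 (adjusted p = 0.213) and -0.88 (adjusted p = 0.0137).

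**Figure D2:**
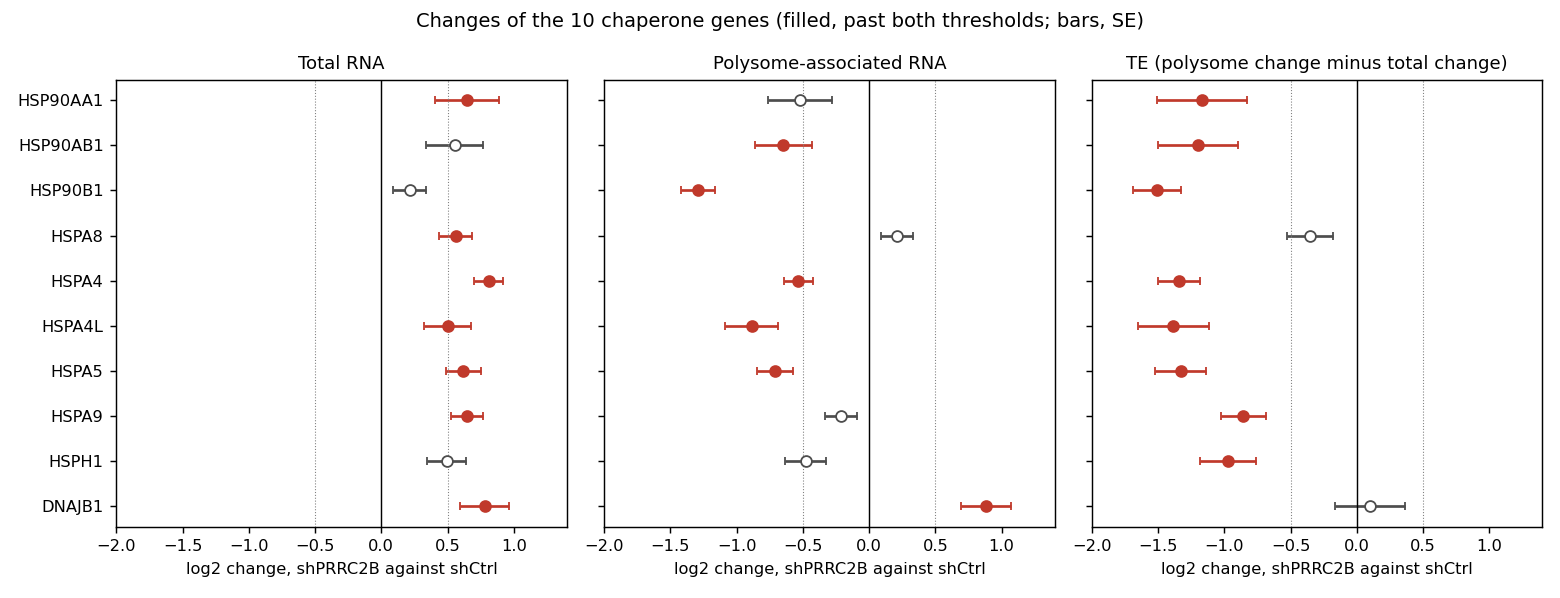
Log2 change of shPRRC2B against shCtrl (x axes, bars SE) in total RNA, in polysome-associated RNA and in TE for the 10 chaperone genes, filled red where past both thresholds, with dotted lines at -0.5 and 0.5. All 10 points lie right of 0 in total RNA, and in TE 9 lie left of 0, 8 of them called.

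The TE change asked whether the polysome-to-total ratio differed between the lines, and was tested as the interaction of line and fraction in the same fit. TE fell for 8 of the 10 genes and rose for 0, where 16.4% of all genes tested were TE-down and 10.7% TE-up. The members were chosen with such results known, since the paper had already listed HSPA4 as TE-down and unbound. By RT-qPCR of gradient fractions at earlier times after induction, the paper saw no shift of HSPA4 to lighter fractions. It ascribed the translational changes of unbound mRNAs to secondary effects, which was not tested here. Taken as ratios of same-numbered libraries, the 3 of shPRRC2B lay below the 3 of shCtrl for 9 of the 10 genes, all but DNAJB1. Of all genes, 20.7% showed this. The labels do not link same-numbered total and polysome libraries, so this pairing is arbitrary and another could give other ranges. The median log2 TE change was -1.18 over the 10 genes and -0.03 over all genes. All 8 calls held in each of the 12 fits without 1 library. The number of TE-down chaperone genes was 8 or 9 over the other alternatives.

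Among the HSP90 genes, HSP90B1 had a log2 TE change of -1.51 (SE 0.18, adjusted p = 3.21e-05), the largest fall of the group. Its ratio to total RNA, fitted over the 3 libraries of each fraction, went from -1.52 (SE 0.13) to -3.03 (SE 0.14) on the log2 scale. HSP90AB1 (-1.20, SE 0.30, adjusted p = 0.00769) and HSP90AA1 (-1.17, SE 0.34, adjusted p = 0.0169) fell by about the same amount as each other, with the widest errors of the group. For HSP90B1 most of the fall came from the polysome side, since its total RNA differed by only 0.21. For HSP90AA1 and HSP90AB1 the fitted changes in total and polysome RNA were opposite in sign and similar in size.

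Among the HSP70 genes, ER HSPA5 had a log2 TE change of -1.33 (SE 0.19, adjusted p = 0.000112) and mitochondrial HSPA9 one of -0.86 (SE 0.17, adjusted p = 0.00135). Cytosolic HSPA8 had -0.35 (SE 0.18, adjusted p = 0.148), which did not pass. Its fitted polysome-to-total ratio was 0.02 (SE 0.12) in shCtrl and -0.33 (SE 0.12) in shPRRC2B cells on the log2 scale, the highest of the group after DNAJB1 in both lines. The HSP110 genes HSPA4L (-1.39, SE 0.27, adjusted p = 0.00115), HSPA4 (-1.34, SE 0.16) and HSPH1 (-0.97, SE 0.21, adjusted p = 0.00289) all fell.

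The J-domain gene DNAJB1, like HSPA8, did not pass in TE. Its TE change was 0.10 (SE 0.26, adjusted p = 0.823), with rises in both total and polysome RNA. The sign of this small value is not settled: it was negative in 3 of the 12 fits without 1 library, down to -0.15 without replicate 1 of the shPRRC2B polysomes, and -0.12 with the length trend removed.

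**Figure D3:**
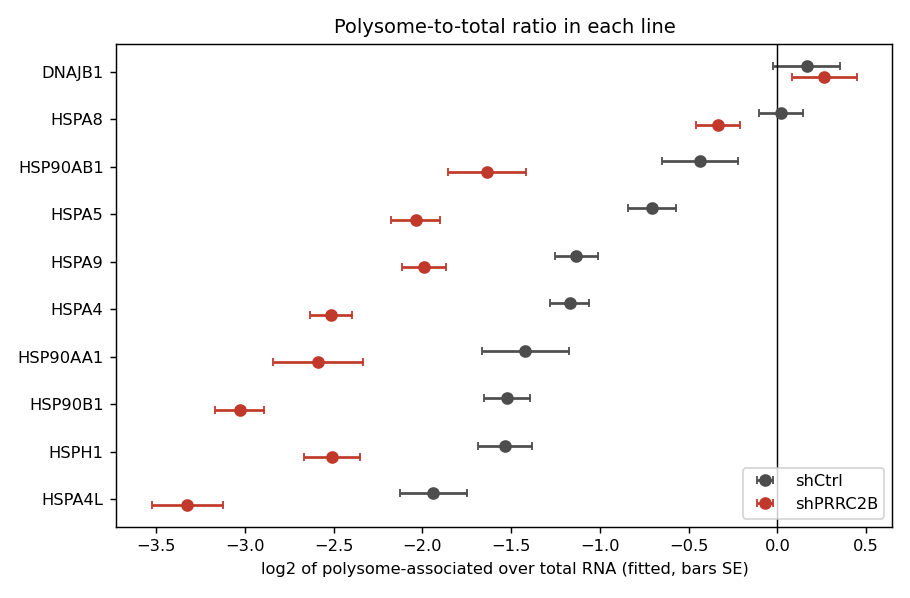
Fitted log2 ratio of polysome-associated to total RNA (x axis, bars SE) in shCtrl (grey) and shPRRC2B (red) cells, with the genes ordered by the shCtrl value. The order runs from DNAJB1 at 0.17 to HSPA4L at -1.94 in shCtrl cells, and the red points lie left of the grey ones for 9 of the 10 genes. The place of 0 depends on the TMM scaling between the fractions.

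The length of the mRNA moved with these values. TMM scaling leaves a trend of the counts on transcript length that differs between libraries, and removing it from each library changed the TE values in opposite directions for short and long transcripts. HSPA4L, with the longest canonical transcript of the group (10608 nt, of which 7859 nt are 3′ UTR), moved from -1.39 to -0.71 (adjusted p = 0.0462). HSPH1 (5244 nt) moved from -0.97 to -0.62 (adjusted p = 0.0336) and HSPA9 (4404 nt) from -0.86 to -0.60 (adjusted p = 0.0111). HSPA8, at 2264 nt among the shortest, moved from -0.35 to -0.58 (adjusted p = 0.0257) and was then TE-down, so that 9 of the 10 genes were. The median TE change over all genes was -0.03 before and -0.10 after this step. HSP90B1 and HSP90AB1 stood at -1.59 and -1.36, HSPA4 and HSPA5 at -1.04 and -1.14, and HSP90AA1 at -1.13, all still TE-down. On polysomes HSPA4 (-0.29) and HSPA4L (-0.36) were then no longer called, which left 3 genes lower.

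**Figure D4:**
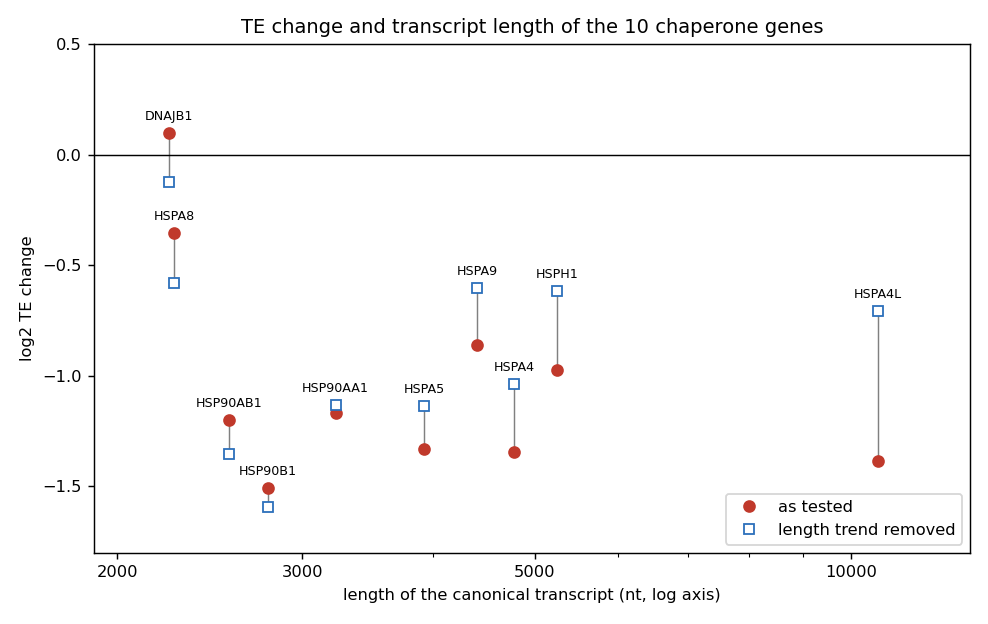
Log2 TE change (y axis) against the length of the canonical transcript in nt (x axis, log scale) for the 10 chaperone genes, as tested (red circles) and with the trend on transcript length removed from each library (blue squares). The 2 values differ most for HSPA4L, -1.39 against -0.71, and least for HSP90AA1, -1.17 against -1.13.

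Sites of PRRC2B were taken from the lists of PAR-CLIP, a method that crosslinks an RNA-binding protein to RNA, for full-length PRRC2B and its P2 segment, both expressed with a FLAG tag in HEK293T cells. Sites found with both proteins lay on 4 of the 10 chaperone genes, all 3 HSP90 genes and HSPA8, 7 sites in all. HSP90AB1 and HSPA8 were chosen because their mRNAs carry sites, so part of this count was fixed by the choice. The share of all genes with such sites was not counted, and the count does not show that chaperone mRNAs hold more sites than others. DNAJB1 had a site with P2 only, and HSPA4, HSPA4L, HSPA5, HSPA9 and HSPH1 had none. On the canonical transcripts of GENCODE 44, 6 of the 7 sites lay wholly or mostly in coding exons. The following stretches of 30 bases, on the strand of the gene, hold the longest run made only of purines (A or G) or only of pyrimidines (C or T) in each site, with that run in capitals.
HSP90AB1, coding exon 6, chr6:44250426-44250455, plus strand: ggtaaggatAAGAAGAAGAAAActaagaag
HSP90B1, coding exon 7, chr12:103938417-103938446, plus strand: agtAGAGGAAGAAGAAGAAGAAAAGAAAcc
HSP90B1, intron (6 bases) and coding exon 17, chr12:103947305-103947334, plus strand: gtttaggtGGAAGAAGAGcccgaagaagaa
HSP90AA1, coding exon 4, chr14:102085373-102085402, minus strand: atcctacacctGAAAGAAGAccaaactgag
HSP90AA1, coding exon 8, chr14:102083647-102083676, minus strand: ctctcaaaatcGGAAGAAGctttcagagct
HSPA8, coding exon 8, chr11:123058324-123058353, minus strand: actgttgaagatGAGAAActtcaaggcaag
HSPA8, intron, chr11:123059294-123059323, minus strand: aacaggagctatgtactgggTTTTCTTTTa

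The longest run was of purines in each of the 6 exonic sites and reached 25 bases in exon 7 of HSP90B1. Over the full 100 bases listed for full-length PRRC2B, A or G made up 80 bases at that site and 77 at the other HSP90B1 site, against 57.6% of the whole HSP90B1 transcript. The HSP90AB1 site held 75 purines of 100 against 53.8% of its transcript, and the exonic HSPA8 site 65 against 52.8%. The HSP90AA1 site in exon 4 held 61 against 56.2%. Coding sequence alone, which is nearer to what these sites cover, held 58.9% purines in HSP90AA1 and 58.6% in HSP90B1. It held 56.0% in HSP90AB1 and 53.1% in HSPA8, so the excess was smallest at exon 4 of HSP90AA1. The HSP90AA1 site at exon 8 held 51, but 30 of its 100 bases are intron, so this is not set against the spliced transcript. The exon 17 site of HSP90B1 has 6 intron bases and lies wholly within UQCC6, a gene on the opposite strand. The remaining HSPA8 site, listed as 5′ UTR, lay wholly in an intron of the canonical transcript, and 58 of its 100 bases fell within SNORD14C, a small nucleolar RNA gene inside HSPA8. These libraries do not tell whether that crosslink was on the HSPA8 mRNA.

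The 4 genes with shared sites had log2 TE changes of -1.20 (HSP90AB1), -1.51 (HSP90B1), -1.17 (HSP90AA1) and -0.35 (HSPA8). The 5 genes without a site had -1.34 (HSPA4), -1.39 (HSPA4L), -1.33 (HSPA5), -0.86 (HSPA9) and -0.97 (HSPH1). The 2 ranges overlapped, with the smallest and the largest falls of the 9 both among the genes with sites. No test was made over so few genes that are not replicates of each other. All these values are from 36 h after induction, and the earlier times that the paper examined for HSPA4 are not among these libraries.

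Ratios of counts within a library, which no scaling can change, showed the balance of related chaperones. HSP90AA1 and HSP90AB1, the inducible and constitutive cytosolic HSP90, were near parity in counts of total RNA. Their ratios were 1.03 ± 0.0651 in shCtrl and 1.10 ± 0.0148 in shPRRC2B cells (SD, n = 3). These ratios are not corrected for transcript length. Per kb, HSP90AA1 stood below HSP90AB1 in shCtrl total RNA, at 373 ± 33.2 against 456 ± 15.2 CPM per kb. On polysomes the ratio of counts was 0.670, 0.539 and 0.419 in the shCtrl libraries and 1.39, 0.445 and 0.261 in the shPRRC2B libraries. Replicate 1 was the highest in both lines, and the shPRRC2B libraries spanned the shCtrl range on either side. The ER pair HSPA5 to HSP90B1 shifted towards HSPA5 in both fractions, from 0.595 ± 0.0274 to 0.788 ± 0.0633 in total RNA and from 1.04 ± 0.102 to 1.57 ± 0.153 on polysomes. In neither fraction did the lines overlap. The HSP110 pair HSPA4 to HSPH1 went from 1.61 ± 0.0686 to 2.00 ± 0.0872 in total RNA, without overlap, and stood at 2.12 ± 0.390 and 2.03 ± 0.286 on polysomes, where the lines overlapped. With 3 libraries a group, an exact test of a single ratio could not pass the threshold and none was run. How many other gene pairs separate without overlap was not counted. For single genes in total RNA such separation was common, with 34.1% of all genes above and 28.8% below.

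**Figure D5:**
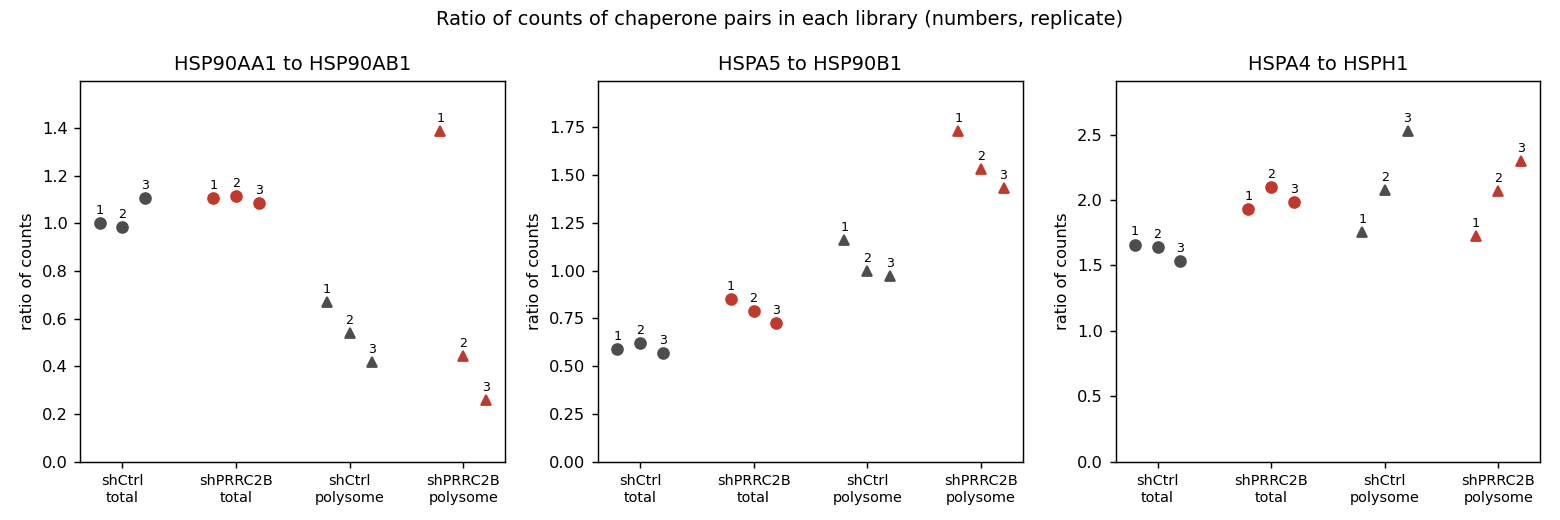
Ratio of counts of HSP90AA1 to HSP90AB1, of HSPA5 to HSP90B1 and of HSPA4 to HSPH1 (y axes, from 0) in each library, grey for shCtrl and red for shPRRC2B, circles for total and triangles for polysome-associated RNA, with the replicate number beside each point. The HSP90AA1 to HSP90AB1 ratio lies between 0.984 and 1.11 in the 6 total libraries and between 0.261 and 1.39 in the 6 polysome libraries.

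Counting could touch some of these values. Annotated pseudogene entries of the cytosolic HSP90 genes held 0.375 to 0.893% (HSP90AA1) and 0.313 to 0.714% (HSP90AB1) of the count of the parent gene per library, and those of HSPA8 (17 entries) at most 0.362%. Pairs that map equally well to a gene and a copy were not counted under the stated options, so their number is unknown. Strand was not used in counting as stated, and 14.85% of the exonic bases of the canonical HSP90B1 transcript and 5.05% of those of HSPA4L lie in exons of other genes, while the other 8 share none.

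Around these genes, lists of partners were read in the same fit, with the same 16.4% of all genes TE-down and 10.7% TE-up as background. Of 25 co-chaperones of HSP90, 6 were TE-down and 1 was TE-up. FKBP5, an immunophilin of steroid receptor complexes, fell by 1.26 (adjusted p = 0.00039), TOMM70, a mitochondrial import receptor that docks HSP90 and HSP70, fell by 1.38 (adjusted p = 0.000154), and FNIP2 had a change of -1.25 (adjusted p = 0.00297). FNIP2 held only 3.62 ± 0.726 CPM on shPRRC2B polysomes. STUB1, the ubiquitin ligase that binds both chaperones, rose by 0.98 (adjusted p = 0.00151).

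Of 28 J-domain genes tested, 11 were TE-down and 0 TE-up. DNAJC16 (-2.82, adjusted p = 2.35e-05), the endosomal DNAJC13 (-1.94, adjusted p = 1.81e-05) and the ER protein DNAJC3 (-1.79, adjusted p = 0.000742) fell furthest among those with a mean of at least 10 CPM. On shPRRC2B polysomes their levels were low, at 1.67 ± 0.626, 2.80 ± 0.480 and 5.68 ± 2.83 CPM. Among 10 nucleotide exchange factors outside the HSP110 family, 3 were TE-down: the BAG-domain genes BAG4 (-1.26, adjusted p = 0.000471) and BAG5 (-1.21, adjusted p = 0.000863), and the mitochondrial GRPEL2 (-1.82, adjusted p = 0.00345). None of the 10 was TE-up. Of 7 other members of the HSP70 and HSP90 families tested, 1 was TE-down, HSPA13 (-1.003, adjusted p = 0.0233). The heat-inducible HSPA1A, HSPA1B and HSPA6 did not pass the filter on low counts, and HSPA1A and HSPA1B are near-identical copies whose shared reads would not be counted.

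The ER list held the most falls, with 13 of 25 genes TE-down and 1 TE-up. The lectin chaperone CANX fell by 2.26 (adjusted p = 9.59e-06), and its levels were 633 ± 22.5 against 934 ± 45.3 CPM in total RNA and 186 ± 43.6 against 57.3 ± 4.63 CPM on polysomes, shCtrl against shPRRC2B. UGGT1, which re-glucosylates misfolded glycoproteins, fell by 2.00 (adjusted p = 9.8e-06), to 6.11 ± 0.399 CPM on shPRRC2B polysomes. ERN1, the IRE1 sensor of the unfolded protein response, rose by 1.44 (adjusted p = 0.000894), with 9.01 ± 2.23 CPM on shCtrl and 22.6 ± 4.12 CPM on shPRRC2B polysomes.

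Of 13 mitochondrial chaperones and proteases, 4 were TE-down and 1 TE-up. The mitochondrial chaperonin subunits moved in opposite directions: HSPD1 fell by 0.89 (adjusted p = 0.00702), and its partner HSPE1 rose by 1.28 (adjusted p = 0.00709), with a fall in total RNA from 46.1 ± 2.86 to 24.0 ± 3.20 CPM. CLPB, a disaggregase, had a TE change of -0.83 (adjusted p = 0.00306). Of 18 heat shock factors and other heat-inducible genes, 4 were TE-down and 3 TE-up. STIP1, which bridges HSP70 and HSP90, fell by 0.96 (adjusted p = 0.00158) and the collagen chaperone SERPINH1 by 0.77 (adjusted p = 0.0025). HSBP1, which binds heat shock factors, rose by 0.80 (adjusted p = 0.0087). The lists share some genes. The TE call of HSPA13 was lost under 8 of 24 alternatives, and those of FNIP2, CLPB, HSPE1 and STUB1 under 2 of 24 each.

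Over the 12 libraries, the genes outside the group whose log2 CPM ran most like that of HSP90AB1 were NHSL1 (Pearson r = 0.992), HSPD1 (0.975) and PDIA6 (0.968) among 10041 genes that averaged 10 CPM or more. For HSPA4 they were CRNKL1 (0.996), GSPT1 (0.995) and PDE3B (0.995). These values describe 12 libraries that share 2 fractions and 2 lines. The TE changes of these 6 genes ran from -0.60 for PDIA6 to -1.39 for PDE3B. Since the genes were picked for their likeness to HSP90AB1 or HSPA4 over the same libraries, falls in TE follow from the choice.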

How the data were processed

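The authors deposited 1 table of raw, whole-number counts of read pairs, by gene name and sample. Per the labels and the methods, poly(A)-enriched paired reads were demultiplexed (bcl2fastq 2.19.0), trimmed (Trimmomatic 0.36), mapped to GRCh38 (HISAT2 2.1.0) and counted on GENCODE gene names (featureCounts of Subread 2.0.1). 0 value columns belonged to no library.

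Here, genes were kept by edgeR's filterByExpr (minimum count 10), scaled by TMM and fitted with glmQLFit over 4 groups, with no block (R 4.3.3, edgeR 4.0.16, limma 3.58.1, DESeq2 1.42.0). TE change, total and polysome changes came from this fit. The SE is the log2 change over the square root of F. CPM use TMM library sizes. The TMM factors ran from 1.344 to 1.471 in total and from 0.6806 to 0.7417 in polysome libraries. The level of a polysome-to-total ratio, and its 0 on the log2 scale, therefore depend on this scaling. Positions and lengths are those of canonical GENCODE 44 transcripts. Nothing in the labels says that same-numbered libraries shared a culture, so p-values measure the spread between these samples. Scripts were tested on simulated data.

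The members, the gene lists and the tests were chosen with earlier results of these data known. Named genes were the 10 chaperone genes, PRRC2B, up to 3 rises and 3 falls in TE per list (mean of at least 10 CPM), and the 3 nearest genes of HSP90AB1 and HSPA4. A gene that this rule names is not reported here. Alternatives were other scalings, filters, tests, blocks, a correction for transcript length (lowess, span 0.3), no minimum change, 1 fraction alone, and each library left out.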

Additional observations from a re-analysis of the deposited data

Results flagged for a closer look

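For 8 chaperone genes the effect of the line differed between polysome-associated and total RNA by the test of the difference itself, the interaction in edgeR's quasi-likelihood fit. The log2 differences were -1.17 for HSP90AA1, -1.2 for HSP90AB1, -1.51 for HSP90B1, -1.34 for HSPA4, -1.39 for HSPA4L, -1.33 for HSPA5, -0.86 for HSPA9 and -0.973 for HSPH1. Of these 8 genes, 5 passed the test as higher in total RNA (all but HSP90AB1, HSP90B1 and HSPH1), and 5 as lower on polysomes (all but HSP90AA1, HSPA9 and HSPH1).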

How the results depend on the processing

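The 8 TE-down calls of the chaperone genes held under each of 24 alternatives, except that of HSPA4L with the length trend removed together with the replicate block (-0.71, adjusted p = 0.0519). The TE change of HSPA8 passed with the length trend removed (-0.58) and with the block as well (-0.58). The sign of the DNAJB1 TE change turned with the length trend removed (-0.12), with the replicate block added to it (-0.11), and without replicate 2 (-0.07) or replicate 3 (-0.11) of the shCtrl polysomes or replicate 1 of the shPRRC2B polysomes (-0.15), and reached 0.39 without replicate 1 of the shCtrl polysomes. The TE change of PRRC2B, 0.16 (SE 0.26), turned to -0.06 without replicate 1 of the shCtrl polysomes and to -0.15 without replicate 1 of the shPRRC2B polysomes, and was at most 0.30 without 1 library. Chaperone genes higher in total RNA numbered 4 with scaling by total counts, 4 to 8 over the alternatives that kept all libraries and 5 to 7 without 1 library. Those lower on polysomes numbered 3 with the length trend removed, with or without the replicate block, and up to 7 otherwise. HSP90AB1 on polysomes was also not called with 1 fraction alone (-0.65, adjusted p = 0.0615). Over all genes, TE-up calls went from 1935 to 1195 with the length trend removed and the replicate block, and ranged from 1285 without replicate 2 of shCtrl total RNA to 2532 without replicate 1 of the shCtrl polysomes. The cause was not tested. Same-numbered libraries did not deviate together (18 correlations of deviations, -0.0886 to 0.0803, 0 over 0.1), and the replicate block alone left 8 chaperone genes TE-down and 5 lower on polysomes. Polysome replicates varied more (r of 0.969 to 0.985 between libraries of a group) than total ones (0.993 to 0.995).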

Other observations

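Some related genes, picked here after their values were seen, also rose in total RNA of shPRRC2B cells. HSPA2, an HSP70 gene best known from the testis, had a log2 change of 2.52 in total RNA (adjusted p = 5.36e-06) and of 2.23 on polysomes (adjusted p = 4.77e-05). BAG3, a heat-inducible nucleotide exchange factor, had changes of 1.03 (adjusted p = 3.68e-05) and 0.92 (adjusted p = 0.000151). DNAJA1, a cytosolic J-domain gene, had one of 0.83 in total RNA (adjusted p = 0.00367). As with DNAJB1, the TE changes of these 3 genes did not pass the test, at -0.29 for HSPA2, -0.11 for BAG3 and -0.57 for DNAJA1.

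Polysome replicate 1 held the highest of the 3 values for HSPA4, HSPA5, HSPA9, HSPH1 and DNAJB1 and the lowest for HSP90AB1 in both lines. DNAJB1 read 77.3 CPM against 45.7 and 42.3 CPM in shCtrl cells and 126 against 91.7 and 87.3 CPM in shPRRC2B cells. HSPH1 read 51.3 against 39.0 and 35.4 CPM in shCtrl cells and 35.6 against 29.3 and 25.2 CPM in shPRRC2B cells. For HSPA4 and HSPA9 the differences in shCtrl cells were small. HSPA4 read 90.0 against 80.9 and 89.5 CPM there, and HSPA9 140.2 against 127.9 and 139.8 CPM. This pattern was picked after the values were seen, and its share over all genes was not counted. Over all genes tested, the deviations of the polysome libraries numbered 1 in both lines had a correlation of -0.005. Replicate numbers carry no stated meaning across the lines.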
